A study of Homo sapiens with 6 samples.

Results

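The 2 arrays of RPMI8402 cells transduced with a control lentivirus were used to describe which genes this leukaemia line transcribes when neither GATA3 nor TCF7 is targeted. RPMI8402 is a long-established human line of T-cell acute lymphoblastic leukaemia, an aggressive cancer of immature T cells. The study compared 3 groups of 2 arrays each, with cells carrying a control short hairpin RNA, a hairpin against GATA3 (shGATA3) or one against TCF7, the gene of TCF1 (shTCF1). In all 3 groups the hairpin vector carried EGFP, the cells were sorted for it at 48 h, and 100 ng of their total RNA was copied into Cy3-labelled cRNA for a custom 1-colour Agilent array. All groups therefore share the transduction and the sort, untransduced cells were not analysed here, and every sample comes from 1 line. The 2 control arrays are 2 of the 6 arrays of the series, which the study describes as 2 independent experiments with these cells. The labels do not say how far the cultures were separate.

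Of 19722 genes named through their RefSeq accession, 14158 were present in the control cells. A probe was called present where the scanner software marked its spots as well above background on both control arrays, a gene was present where at least 1 of its probes was, and a gene was not detected where no probe was marked on either array. By this rule 71.8% of the named genes were present, 23.9% were not detected, and the other 842 were marked on 1 array only. Probes were ranked by the mean log2 processed signal of both arrays, and a present gene was called bright where its brightest probe lay at or above the 90th percentile of the 57166 probes, which was a log2 signal of 10.78. Bright genes made up 21.5% of the named genes. The calls overlapped in signal: the highest mean log2 signal not detected was 4.63, and the lowest one present was 3.86. Signal depends on the probe as well as on the RNA, so a percentile orders spots and not amounts of transcript. In a bulk sample, fewer cells with a transcript and less of it per cell cannot be told apart.

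T-cell development in the thymus starts from progenitors that receive Notch signals, switch on TCF7, GATA3 and BCL11B, rearrange their T-cell receptor genes with the recombinases RAG1 and RAG2 and the polymerase DNTT, and pass through a cortical stage with CD1, CD4 and CD8 on the surface. T-cell acute lymphoblastic leukaemia arrests cells along this path, often with a transcription factor that thymocytes normally silence, such as TAL1, LMO1, LMO2, TLX1 or TLX3. RPMI8402 is known for a deletion that puts TAL1 under the promoter of its neighbour STIL, and for a translocation that brings LMO1 next to T-cell receptor genes.

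Promoter windows from RefSeq (build GRCh38.p14) were set beside the presence calls, since the same windows recur below with the values of their genes. Of 18143 protein-coding genes measured, 10685 had exactly 1 window in the table, and the 250 bases before the annotated start were read. The 6 windows shown belong to STIL, whose promoter is known to drive TAL1 in this line, LMO1, the purine enzymes ADA and APRT, and IL7R and MTAP, which were not detected. They are written 5′ to 3′ along the gene, and capitals mark each CG pair and each TATAAA (the TATA motif) or CCGGAAG (an ETS-type motif) on either strand.
STIL, chr1:47314148-47314397, minus strand: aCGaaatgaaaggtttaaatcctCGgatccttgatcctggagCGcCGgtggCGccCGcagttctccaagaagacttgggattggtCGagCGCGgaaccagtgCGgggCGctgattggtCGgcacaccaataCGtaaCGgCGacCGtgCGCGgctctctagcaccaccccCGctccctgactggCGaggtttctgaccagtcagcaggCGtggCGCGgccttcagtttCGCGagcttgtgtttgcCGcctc
LMO1, chr11:8268788-8269037, minus strand: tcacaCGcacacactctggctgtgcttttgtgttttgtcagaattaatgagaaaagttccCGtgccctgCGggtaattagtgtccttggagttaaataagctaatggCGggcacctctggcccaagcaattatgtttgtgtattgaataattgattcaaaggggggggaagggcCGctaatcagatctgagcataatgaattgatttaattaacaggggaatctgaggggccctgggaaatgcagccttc
ADA, chr20:44651700-44651949, minus strand: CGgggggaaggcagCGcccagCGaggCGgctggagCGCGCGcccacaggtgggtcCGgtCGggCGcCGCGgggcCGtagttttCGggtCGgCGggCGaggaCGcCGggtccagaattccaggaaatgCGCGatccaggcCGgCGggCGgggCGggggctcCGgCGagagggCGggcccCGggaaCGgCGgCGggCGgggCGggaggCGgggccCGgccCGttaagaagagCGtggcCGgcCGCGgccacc
APRT, chr16:88811929-88812178, minus strand: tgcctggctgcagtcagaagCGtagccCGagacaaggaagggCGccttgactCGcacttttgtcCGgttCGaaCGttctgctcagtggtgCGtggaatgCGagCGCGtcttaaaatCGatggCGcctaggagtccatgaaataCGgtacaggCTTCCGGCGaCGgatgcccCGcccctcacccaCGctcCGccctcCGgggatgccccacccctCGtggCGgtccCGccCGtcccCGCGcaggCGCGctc
IL7R, chr5:35856641-35856890, plus strand: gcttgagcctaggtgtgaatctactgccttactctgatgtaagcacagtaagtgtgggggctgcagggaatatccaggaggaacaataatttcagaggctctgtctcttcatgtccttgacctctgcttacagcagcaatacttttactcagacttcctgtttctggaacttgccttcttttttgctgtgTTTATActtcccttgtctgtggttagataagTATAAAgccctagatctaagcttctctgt
MTAP, chr9:21802386-21802635, plus strand: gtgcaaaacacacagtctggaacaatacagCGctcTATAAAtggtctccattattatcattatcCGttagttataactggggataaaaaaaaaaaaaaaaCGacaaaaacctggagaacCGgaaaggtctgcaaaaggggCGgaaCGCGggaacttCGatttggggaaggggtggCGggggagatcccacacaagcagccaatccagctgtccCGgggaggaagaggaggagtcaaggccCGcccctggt

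The windows of ADA and STIL held 41 and 26 CG pairs. The window of IL7R held 0 and matched TATAAA on both strands, while that of MTAP held 11 and also matched TATAAA. The window of LMO1 held 5 CG pairs and neither motif, although its gene was among the bright ones. The window of APRT held 29 CG pairs and CCGGAAG, read on the opposite strand as CTTCCGG.

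Over all genes with 1 window, the bright ones had a median of 22 CG pairs (quartiles 16 and 29, 2486 genes) and the present ones below bright a median of 19 (quartiles 11 and 27, 5322 genes). Genes marked on 1 array had a median of 12 (440 genes), and genes not detected a median of 6 (quartiles 2 and 19, 2437 genes). The quartiles of bright genes and of genes not detected overlapped between 16 and 19. CCGGAAG, which itself contains a CG pair, stood in 21.3% of the windows of bright genes, in 14.4% of those of present genes below bright and in 4.10% of those of genes not detected, against 13.3% of all genes with 1 window and 8.52% of all 35116 windows of the table. TATAAA ran the other way, with 6.19% of windows of bright genes and 17.5% of windows of genes not detected, against 9.71% of all genes with 1 window and 10.72% of all windows of the table. These are letters in a window and were not measured as bound sites.

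**Figure D1:**
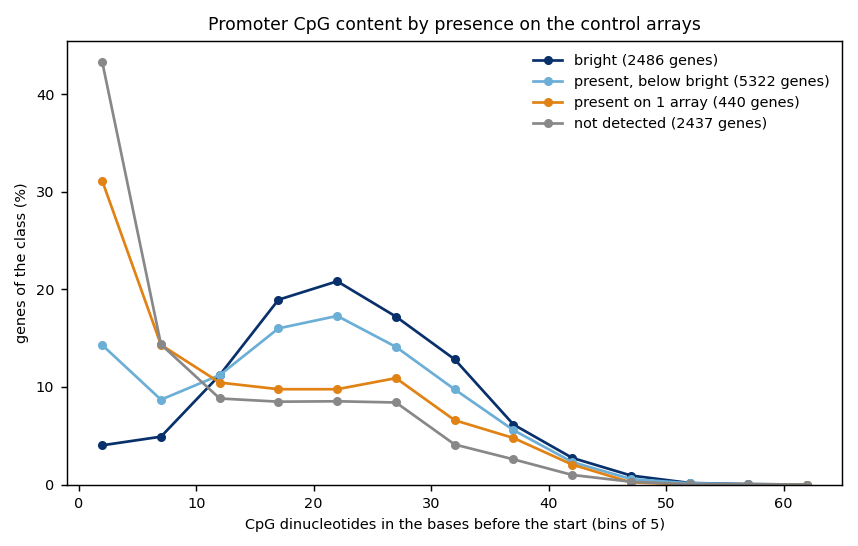
Number of CG pairs in the 250 bases before the start (horizontal axis, bins of 5) against the percentage of genes of each presence class (vertical axis), for protein-coding genes with 1 RefSeq window. The curve of genes not detected peaks in the lowest bin, while that of bright genes peaks near their median of 22.

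The 2 control arrays agreed closely where signal was high. Over the 29783 probes present on both, their log2 signals correlated with r = 0.994, a correlation across probes that are not independent replicates. After the arrays were set to a common 75th percentile, their median absolute difference was 0.104 log2 units. The SD of the difference was 0.104 among bright probes (5716 probes) and 0.421 among present probes between the 50th and 70th percentile (11207 probes). For the listed genes present on both arrays the median SD of the log2 signal was 0.0948 (n = 2). Probes present on the control arrays were well above background on all 4 hairpin arrays in 91.8% of cases, and probes not detected were marked on none of those 4 in 91.1%. The 75th percentile of the signal was 280 ± 13.1 (SD, n = 2) on the control arrays and 174 ± 5.84 (SD, n = 4) on the hairpin arrays. Before scaling, the lowest log2 signal marked as well above background was 3.79 and 3.74 on the control arrays. On the hairpin arrays it lay between 2.97 and 3.19. All 6 arrays shared 1 slide and scan, and the control arrays lay in another column of it than the hairpin arrays.

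**Figure D2:**
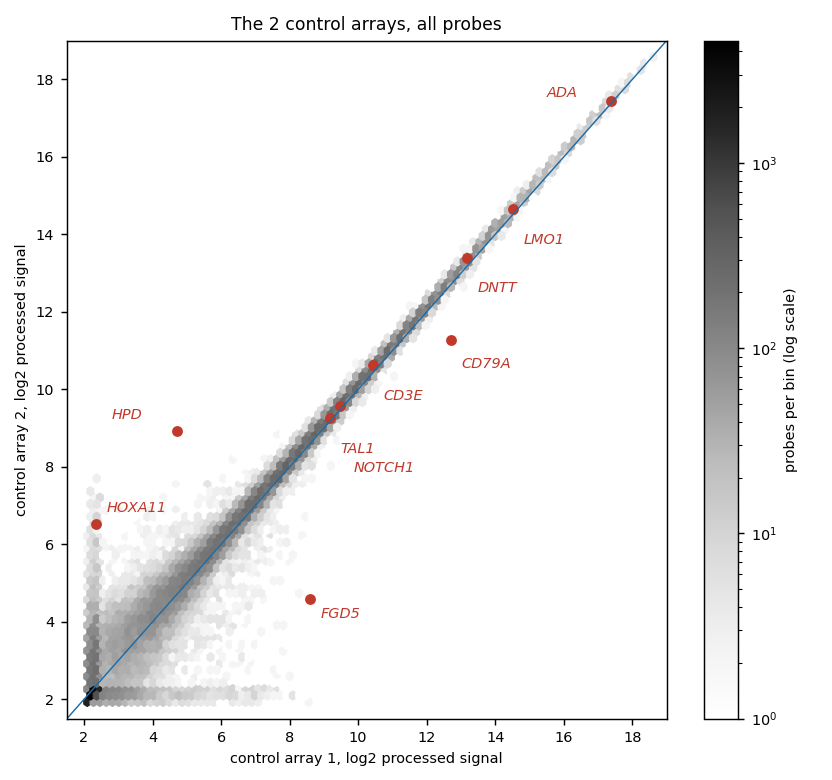
Log2 processed signal of every probe on control array 1 (horizontal axis) and control array 2 (vertical axis), with darker bins holding more probes and the diagonal marking equal signal. The 5 markers of the line and ADA lie on the diagonal, while CD79A, HPD, FGD5 and HOXA11 lie off it, and the bands at the left and lower edges are probes at the lowest signal of 1 array.

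The 5 genes that mark this line were all present on both control arrays, and on all 6 arrays of the series. TAL1, the basic helix-loop-helix factor of this leukaemia subtype, gave log2 signals of 9.18 and 9.25 (percentile 82.0). LMO1, a LIM-only protein that joins TAL1 to its DNA-binding partners, was bright at 14.53 and 14.66 (percentile 98.7). NOTCH1 gave 9.47 and 9.58, CD3E of the T-cell receptor complex gave 10.42 and 10.62, and DNTT was bright at 13.18 and 13.40. Of the 5, LMO1 and DNTT were bright.

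The neighbours of both oncogenes differed among themselves. STIL, a centriole protein gene upstream of TAL1, was present at 9.14 and 9.74, and CMPK1 beyond it at 10.50 and 10.63. PDZK1IP1, on the other side of TAL1, was marked on 1 array (3.96 and 4.74), and CYP4X1 was not detected. Around LMO1, RIC3 (8.45 and 8.68) was present and EIF3F (12.50 and 12.51) and TMEM9B (11.72 and 11.84) were bright, while TUB (2.26 and 2.12) and STK33 (2.46 and 2.22) were not detected. In all, 8 of 12 neighbour genes were present (66.7%) and 2 were bright (16.7%), near the 71.8% and 21.5% of all named genes.

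Among 23 transcription factor genes that drive T-cell leukaemia when misplaced, 15 were present (65.2%, against 71.8% of all named genes), 2 were marked on 1 array and 6 were not detected. The bright ones were MYB (15.40 and 15.61), NKX2-5 (14.73 and 15.15), LMO1, MYC (12.55 and 12.71), HOXA10 (11.68 and 11.58) and NKX2-1 (10.88 and 10.73). NKX2-5 is a homeobox factor best known from the heart, and it stood at percentile 98.9, among the 10 brightest of the listed transcription factors and surface molecules.

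The other LIM-only and TAL1-related genes were split. LMO4 (10.18 and 10.41), LYL1 (10.20 and 10.34) and TAL2 (6.53 and 6.80) were present. LMO2 gave 2.29 and 2.15 and LMO3 2.34 and 2.26, and neither was detected. OLIG2 (2.26 and 2.14), another basic helix-loop-helix gene, was not detected either.

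Factors that mark other leukaemia subtypes were split. TLX1 (3.17 and 3.66), TLX3 (2.14 and 1.99) and MEF2C (4.31 and 4.10) were not detected on the control arrays, although the MEF2C probe was well above background on all 4 hairpin arrays. The cluster of HOXA genes was uneven: HOXA5 (8.97 and 8.995), HOXA7 (5.79 and 6.16) and HOXA9 (9.35 and 9.29) were present below bright. HOXA11 was at 2.34 on array 1, where it was not well above background, and at 6.52 on array 2. HOXA9 and HOXA10 were each called from 1 of 2 probes, and the other probe of HOXA9 was not detected while that of HOXA10 was marked on 1 array. SPI1 (7.81 and 7.70) was present, SPIB (4.48 and 5.09) was marked on 1 array, and MYCN gave 10.52 and 10.65.

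Of 18 genes whose proteins TAL1 works with, 17 were present (94.4%, against 71.8% of all named genes) and 7 were bright (38.9%, against 21.5%). The E-protein genes TCF3 (13.47 and 13.69) and TCF4 (12.44 and 12.71) were bright, and TCF12 gave 9.17 and 9.72. RUNX1 was bright at 13.23 and 13.32 with all 5 of its probes present, and so was its partner CBFB (12.33 and 12.42). LDB1, which bridges LIM-only proteins, gave 7.98 and 8.03. The GATA factors differed from each other: GATA3 gave 9.89 and 10.04, GATA2 7.99 and 8.10, and GATA1 was the only partner gene not detected (2.33 and 2.17). All 6 genes known as targets of TAL1 were present (100%, against 71.8% of all named genes) and 3 were bright (50%, against 21.5%). MYB and CDK6 (15.19 and 15.30) were among the bright ones. ALDH1A2 (8.50 and 8.60), ARID5B (10.03 and 9.99) and TRIB2 (6.95 and 7.32) were below bright.

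**Figure D3:**
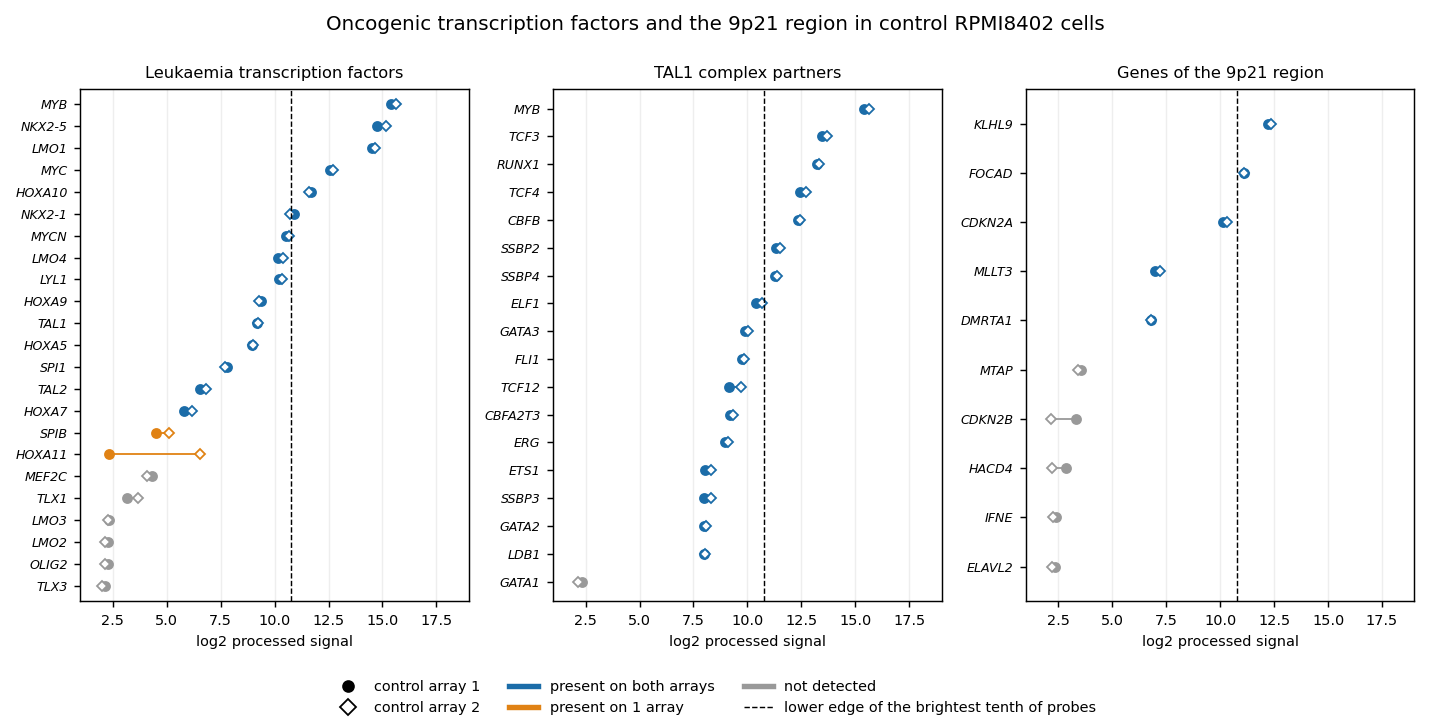
Log2 processed signal (horizontal axis) of leukaemia transcription factors, TAL1 partners and genes around CDKN2A on control array 1 (filled circles) and control array 2 (open diamonds), coloured by presence call, with the dashed line at the lower edge of the bright range, 10.78. TAL1 lies below that line and LMO1, NKX2-5 and MYB far above it, while LMO2, LMO3, TLX1 and TLX3 lie at the low end.

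In the 9p21 region of chromosome 9, around CDKN2A, 5 of 10 genes were present and 5 were not detected (50%, against 23.9% of all named genes). MTAP, a methionine salvage enzyme, was not detected by any of its 3 probes, and its brightest probe gave 3.56 and 3.43. CDKN2B (3.31 and 2.14), which encodes a cyclin-dependent kinase inhibitor, HACD4 (2.83 and 2.19), IFNE (2.41 and 2.26) and ELAVL2 (2.34 and 2.22) were not detected. CDKN2A was called present from 1 of 2 probes, which gave 10.11 and 10.30, while its other probe gave 2.24 and 2.12. Present on both arrays were KLHL9 (12.22 and 12.35), FOCAD (11.11 and 11.09), MLLT3 (6.97 and 7.19) and DMRTA1 (6.77 and 6.80). Copy number was not measured here. Of 23 tumour suppressor genes measured, 22 were present (95.7%, against 71.8% of all named genes) and 12 bright (52.2%, against 21.5%). CDKN2B was the one not detected. RB1 (13.15 and 13.29), which restrains entry into S phase, was bright. CDKN1A, a cyclin-dependent kinase inhibitor gene, had the lowest percentile of those present (5.05 and 4.87).

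Of 20 progenitor genes, 16 were present (80%, against 71.8% of all named genes) and 3 were bright (15%, against 21.5%), namely CD34 (11.18 and 11.28), CD44 (11.44 and 11.35) and CD38 (10.94 and 11.01). HHEX (10.54 and 10.71), LYL1 and MYCN lay just below the bright range. FLT3 (2.38 and 2.26) and PROM1 (2.15 and 1.99), receptor and surface genes of early haematopoietic cells, were not detected, and neither were LMO2 and MEF2C. KIT, the stem cell factor receptor, was present from 1 of 3 probes at 4.84 and 4.85, the lowest percentile of those present.

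Most genes of the Notch pathway and of T-lineage specification were present, and pathway activity was not measured. Of 21 genes, 19 were present (90.5%, against 71.8% of all named genes) and 12 bright (57.1%, against 21.5%). HES4, a Notch target, was the brightest of them at 17.20 and 17.23 (percentile 99.8), and LEF1 (15.12 and 15.22), TCF7 (14.32 and 14.40) and BCL11B (13.63 and 13.80) followed. HES4 was measured by a single probe, so no other probe could be set beside it. Of the receptors, NOTCH3 was bright at 13.22 and 13.36 and NOTCH2 at 10.85 and 10.94, while NOTCH1 lay at percentile 83.7.

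Further Notch targets were bright, dim or marked on 1 array. PTCRA, the pre-T-cell receptor alpha gene, was bright at 12.57 and 12.71. DTX1 (10.75 and 10.80) lay at the lower edge of the bright range, whereas HES1 gave 8.84 and 8.99. NRARP gave 7.60 and 7.71 with 1 of 2 probes, and HEY1 was marked on 1 array only (4.99 and 4.50). IL7R, the interleukin-7 receptor and a known Notch target, was the one gene of the list not detected (3.19 and 3.98), and it was marked on none of the 4 hairpin arrays. The early T-cell surface genes CD2 (12.25 and 12.38) and CD5 (12.43 and 12.41) were bright, and CD7 gave 9.27 and 9.39.

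Of 18 cortical thymocyte genes, 12 were present (66.7%), 4 bright (22.2%) and 5 not detected (27.8%), which is near the 71.8%, 21.5% and 23.9% of all named genes. DNTT, CD4 (12.01 and 12.12), CCR9 (11.76 and 11.72) and ID3 (11.55 and 11.67) were bright. By contrast CD1A (3.79 and 4.52), CD1B (3.47 and 3.28), CD1C (2.23 and 3.77) and CD1E (3.62 and 4.38) were not detected, and CD1D was present at a low 4.53 on both arrays.

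The recombination genes did not go together. RAG1 was present at 5.54 and 5.13 but on none of the 4 hairpin arrays, and RAG2 (2.16 and 2.05) was not detected. DNTT, which adds bases at the joints, lay at percentile 97.2. The CD8 genes were dim beside the bright range: CD8A gave 7.92 and 8.69 with 1 of 2 probes, and CD8B 5.37 and 6.14 with 2 of 3 probes. SATB1 (8.43 and 8.80), ELOVL4 (8.16 and 8.35) and TOX (6.57 and 7.04) were present, and ARPP21 was marked on 1 array (3.97 and 4.59).

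Of 19 measured genes of the T-cell receptor complex and its signalling, 17 were present (89.5%) and 11 bright (57.9%). Over all named genes, 71.8% were present and 21.5% bright. CD3D (15.47 and 15.64), CD3G (13.33 and 13.72) and CD247 (10.79 and 11.05) were bright and CD3E lay just below. The kinases LCK (14.21 and 14.31), ZAP70 (14.22 and 14.25) and FYN (11.63 and 11.85) and the adaptors LAT (13.73 and 13.71), LCP2 (11.25 and 11.45) and SH2D1A (12.46 and 12.76) were bright. THEMIS (2.34 and 3.90), a thymocyte selection gene, was not detected and was marked on no hairpin array. The constant-region genes of the receptor chains, TRAC and TRBC1 among them, had no probe named here.

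Of 18 mature T-cell genes, 11 were present (61.1%, against 71.8% of all named genes) and 3 were bright (16.7%, against 21.5%). CD40LG, the ligand of CD40 on helper T cells, gave 13.22 and 13.48 and CD52 12.57 and 12.76. The lineage factors TBX21 (3.91 and 3.92) and EOMES (4.08 and 4.22) were not detected, nor were CD69, CTLA4, CCR4, GZMK and the interleukin-2 receptor gene IL2RA (2.34 and 2.23). PDCD1 (8.42 and 8.46) and ICOS (7.63 and 7.65) were present, and FOXP3 was present from 1 of 2 probes at 4.73 and 5.02.

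**Figure D4:**
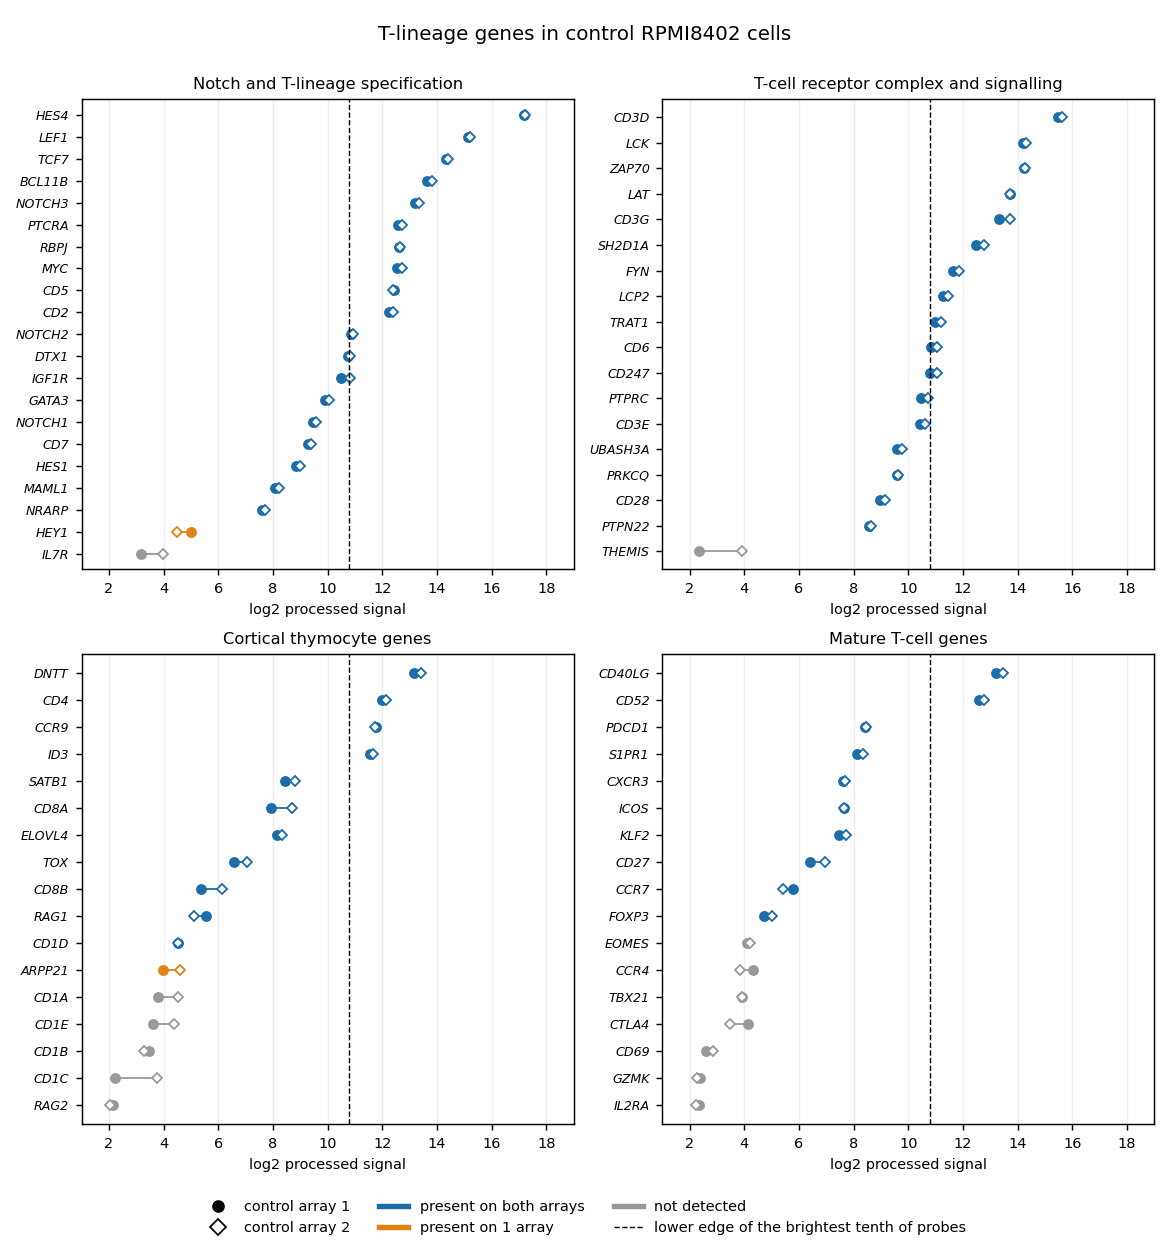
Log2 processed signal (horizontal axis) of genes from 4 T-lineage lists on control array 1 (filled circles) and control array 2 (open diamonds), coloured by presence call, with the dashed line at 10.78 marking the bright range. Most specification and receptor genes lie near or beyond the line, while the CD1 genes, RAG2, IL7R, THEMIS, TBX21 and EOMES lie below 5 on both arrays.

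Markers of other cell types were checked against the control arrays as a gauge of the presence call. Of 45 markers of myeloid, erythroid, epithelial, stromal, neuronal and liver cells, 24 were present (53.3%) and 0 were bright. Over all named genes, 71.8% were present and 21.5% bright. The highest marker was KRT8, a keratin, at percentile 86.1 from 1 of 2 probes, the other giving 2.34 and 2.26. A call of present below the bright range was thus also made for genes such as ALB (5.70 and 6.21), the serum protein of hepatocytes. Of the 6 hepatocyte markers 3 were present, APOA1 (6.84 and 7.12, 1 of 2 probes) among them, and TTR and FGB were among the 3 not detected.

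Lymphoid markers outside the T lineage were mixed. Of 9 B-cell markers measured, 5 were present (55.6%, against 71.8% of all named genes), and CD79A and VPREB1 were bright (22.2%, against 21.5%). VPREB1, part of the surrogate light chain, gave 11.56 and 11.69, and IGLL1, its companion and a progenitor gene of the lists, gave 9.64 and 9.65. CD79A, a B-cell receptor subunit that T-cell leukaemias can share, gave 12.71 and 11.26, which left a difference of -1.54 (array 2 minus array 1) after scaling. It was 1 of only 3 bright probes of the 5716 that differed by more than 1. CD79B (3.84 and 4.28), CD22 (2.19 and 2.06) and EBF1 (2.34 and 2.76) were not detected and PAX5 was marked on 1 array.

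Of 10 NK-cell markers, 6 were present (60%) and 1 was bright (10%), both below the 71.8% and 21.5% of all named genes. The bright one was NKG7, a cytotoxic granule gene, at 11.21 and 11.38. GZMB, a granzyme, gave 9.12 and 9.15, and NCAM1 gave 7.95 and 7.92 with 1 of 3 probes. PRF1 (3.40 and 3.54), which encodes perforin, KLRD1 (2.26 and 2.12) and KLRF1 (2.37 and 2.25) were not detected. GNLY was at 2.25 on array 1 and 6.27 on array 2.

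Receptors for cytokines and growth factors were mostly present but seldom bright. Of 28 genes, 22 were present (78.6%, against 71.8% of all named genes) and 2 bright (7.14%, against 21.5%). The common gamma chain IL2RG gave 12.55 and 12.74 and IFNAR2 of the interferon receptor 11.66 and 11.76. The specific partner chains of IL2RG differed: IL2RB (8.14 and 8.40), IL4R (8.36 and 8.62), IL9R (9.90 and 9.78) and IL15RA (7.66 and 7.83) were present, whereas IL7R, IL2RA and IL21R (4.41 and 4.24) were not detected. A further IL15RA probe was not detected (3.42 and 3.72). FAS, a death receptor, was present at 4.66 and 4.61 with 1 of 3 probes, TNFRSF10B gave 10.28 and 10.38, and TNFRSF10A (2.21 and 2.72), CSF1R and IL10RA were not detected. CSF1R and IL10RA were each well above background on 3 of the 4 hairpin arrays.

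Of 26 downstream signalling genes, 25 were present (96.2%, against 71.8% of all named genes) and 6 were bright, a share (23.1%) near the 21.5% of all named genes. JAK3, the kinase that binds the common gamma chain, was bright at 12.58 and 12.65, as were STAT2 (12.79 and 12.83), STAT6 (12.43 and 12.53), STAT5A (12.11 and 12.29), STAT5B (11.68 and 11.92) and SOCS2 (11.75 and 11.83). The other JAK3 probe was present below bright at 7.38 and 7.77. STAT4 was not detected by either of its 2 probes (2.23 and 2.51 for the brighter). PIK3R5 (4.93 and 4.40) had the lowest percentile of the genes present, 46.8, and AKT1 gave 10.60 and 10.72.

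Of 32 homing and adhesion genes, 29 were present (90.6%, against 71.8% of all named genes) and 14 bright (43.8%, against 21.5%). ICAM2 (15.40 and 15.41), CXCR4 (15.12 and 15.25), CD47 (14.44 and 14.49), CD82 (13.65 and 13.71), ICAM3 (13.30 and 13.39) and CD99 (13.07 and 13.11) were bright. CXCR4 is the chemokine receptor that holds leukaemia cells in the marrow niche, and CCR9 guides cells to the thymus and gut. CCR7, which guides cells to lymph nodes, gave 5.77 and 5.40, and CCR4 (4.32 and 3.86), CD48 (3.06 and 4.26) and CD37 (4.62 and 4.53) were not detected. ICAM1 had the lowest percentile of those present (4.09 and 4.64), and its mean signal was below that of CD37.

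The antigen-presentation genes separated by class. HLA-B, HLA-C, HLA-E, HLA-F, HLA-G and B2M (15.14 and 15.27) were all bright, as were TAP1 and TAPBP. Class II genes were never bright. HLA-DRA (2.40 and 2.27), the invariant chain CD74 (3.34 and 3.72) and HLA-DMB (2.31 and 4.37) were not detected. HLA-DRB1 gave 9.14 and 9.29, HLA-DQB1 8.15 and 8.11, HLA-DPA1 8.04 and 8.13 and HLA-DMA 8.02 and 8.01, and the activator CIITA 5.98 and 6.19. The other CIITA probe was not detected (3.23 and 3.40). HLA genes share long stretches of sequence, so a probe of one can take up RNA of another.

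All 22 apoptosis regulators were present (100%, against 71.8% of all named genes) and 7 were bright (31.8%, against 21.5%). BIRC5, the survivin gene, gave 15.16 and 15.20 (percentile 99.1), BAX 12.58 and 12.60 and BID 12.51 and 12.57. The other BAX probe was present below bright at 7.04 and 7.03. Among the genes of survival proteins, MCL1 gave 9.78 and 9.91, BCL2L1 9.08 and 8.95 and BCL2 7.26 and 7.20 (percentile 68.6), while BCL2A1 was bright at 10.92 and 10.99 from 1 of 2 probes. BOK (5.46 and 5.13) had the lowest percentile of the list.

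Of 25 genes that bear on the response to leukaemia drugs, 23 were present (92%) and 13 bright (52.0%). Over all named genes, 71.8% were present and 21.5% bright. TYMS, the target of antifolates and fluoropyrimidines, gave 15.35 and 15.41, GGH 13.88 and 13.93 and TOP2B 13.65 and 13.81. CDK6 and CDK4 (12.99 and 13.12) were bright. The glucocorticoid receptor gene NR3C1 gave 10.20 and 10.19. The efflux pumps ABCB1 (3.04 and 3.98) and ABCG2 (4.35 and 2.60) were not detected, while ABCC1 gave 8.96 and 9.23 and ABCC4 5.82 and 5.81.

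Nucleotide synthesis had the largest share of bright genes of any list apart from the 9 reference genes, of which 8 were bright. Of its 30 genes, 29 were present (96.7%, against 71.8% of all named genes) and 21 bright (70%, against 21.5%). ADA, which deaminates adenosine and whose loss causes immunodeficiency, gave 17.39 and 17.45 (percentile 99.9), and thymidine kinase TK1 gave 16.27 and 16.44. ADA was measured by a single probe. APRT (14.42 and 14.54), RRM1 (14.04 and 14.14) and PAICS (14.04 and 14.20) were bright, and TK2 (7.11 and 7.21) had the lowest percentile of those present. MTAP, which feeds the purine salvage that APRT completes, was the one gene not detected.

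Of 27 glycolysis genes, 26 were present (96.3%, against 71.8% of all named genes) and 14 bright (51.9%, against 21.5%). GAPDH (16.40 and 16.59), LDHB (16.03 and 16.09), LDHA (15.16 and 15.48), ENO1 (14.69 and 15.04) and TPI1 (14.63 and 14.90) were bright. The hexokinases differed, with HK1 at 10.97 and 11.12, HK2 at 10.16 and 10.56 from 1 of 2 probes, and HK3 not detected (2.25 and 3.37). The glucose transporters SLC2A1 and SLC2A3 gave 9.82 and 10.31 and, at the lowest percentile of the list's present genes, 5.12 and 5.29. The other SLC2A3 probe was not detected (2.39 and 4.21). The lactate exporter SLC16A3 gave 4.92 and 7.12, and with LDHC (7.04 and 8.19) and CD79A it was 1 of 3 genes, of 429 listed genes and markers present on both arrays, that differed by more than 1 after scaling.

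Of 26 genes of the tricarboxylic acid cycle and pyruvate entry, 25 were present (96.2%) and 15 bright (57.7%). Over all named genes, 71.8% were present and 21.5% bright. MDH1 (14.83 and 14.98), CS (14.16 and 14.25) and SDHA (13.81 and 13.88) were bright, OGDH had the lowest percentile of those present (6.58 and 6.79), and PDHA2, the testis form of the pyruvate dehydrogenase subunit, was not detected (2.73 and 2.30).

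Of 28 amino acid and one-carbon genes, 26 were present (92.9%, against 71.8% of all named genes) and 16 bright (57.1%, against 21.5%). The serine synthesis enzymes PHGDH (14.41 and 14.37), PSAT1 (13.30 and 13.25) and PSPH (12.61 and 12.83) were all bright, as were GOT2 (14.73 and 14.73), ODC1 (14.03 and 14.01) and the mitochondrial folate enzymes SHMT2 (12.91 and 13.04) and MTHFD2 (12.55 and 12.69). ASNS, the asparagine synthetase gene, gave 11.39 and 11.57. GLS2 (3.93 and 3.91) was not detected. ASS1 had the lowest percentile of those present (4.87 and 5.19), and its other probe was not detected (2.35 and 3.72). ARG1 was marked on 1 array (3.69 and 5.05).

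Of 28 lipid genes, 24 were present (85.7%, against 71.8% of all named genes) and 14 bright (50%, against 21.5%). The bright ones included SREBF1 (14.75 and 14.89), FADS2 (14.24 and 14.49), FDPS (13.89 and 13.98), FADS1 (13.16 and 13.21), ACACA (12.51 and 12.53) and FASN (11.80 and 11.84). The other SREBF1 probe was present below bright at 8.41 and 8.57. The fatty acid carrier gene FABP5 was bright (13.42 and 13.60), while FABP4 (2.23 and 2.10), CD36 (2.18 and 2.08), PPARG (2.31 and 2.23) and CPT1C (4.25 and 4.19) were not detected. The brighter CPT1C probe was well above background on all 4 hairpin arrays. ACACB (7.45 and 7.58) had the lowest percentile of those present, and its other probe was not detected (4.48 and 4.42).

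**Figure D5:**
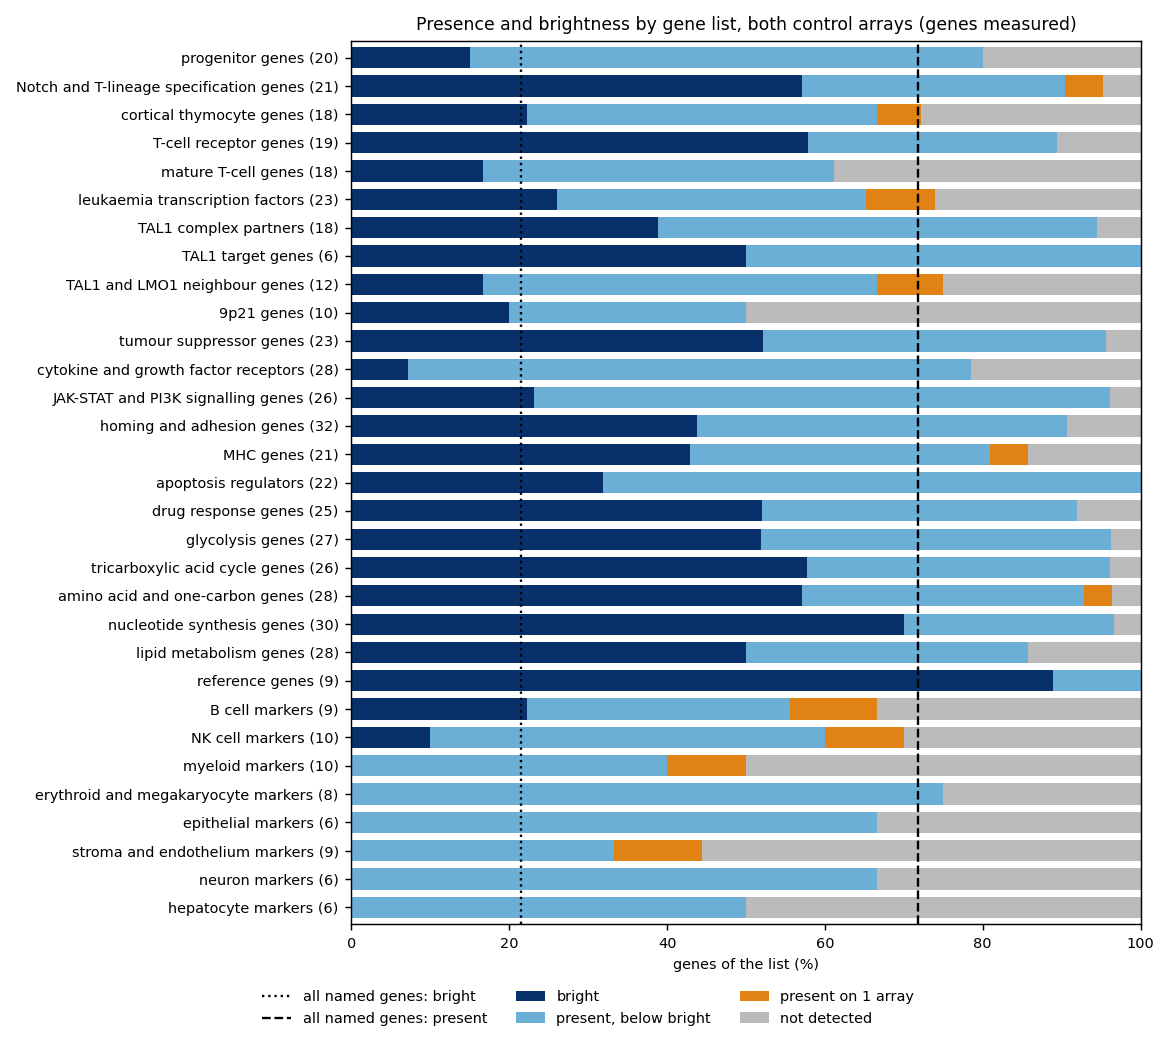
Percentage of the measured genes of each list (vertical axis, number measured in brackets) that were bright, present below bright, present on 1 array or not detected on the control arrays (horizontal axis), with lines at the 21.5% bright and 71.8% present of all named genes. Nucleotide synthesis (70% bright) and the reference genes reach furthest to the right in the dark shade, and the 6 lists of non-lymphoid markers have no bright gene.

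Over the 453 distinct listed genes measured, 395 were present (87.2%, against 71.8% of all named genes) and 187 were bright (41.3%, against 21.5%). Another 7 were marked on 1 array and 51 were not detected. The lists were drawn up from genes known in T cells and leukaemia, so a share above that of all named genes describes the choice as well as the cells. Of the 395, 378 were well above background on all 4 hairpin arrays by their brightest probe, and of the 51, 39 were marked on none. A laxer mark of the scanner software, a signal positive and significant against background, held on both control arrays for 24 of the 51, IL7R, MTAP, TLX1, MEF2C and 3 CD1 genes (CD1A, CD1B and CD1E) among them. Of 147 listed genes and markers with several probes, 29 had 1 probe present and another not detected.

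Genes of the ribosome were frequent at the top of the ranking. Of the 100 brightest genes, 58 encode cytosolic ribosomal proteins. Of the 87 such genes measured, 83 were bright (95.4%, against 21.5% of all named genes). The 20 brightest included RPS2 (18.54 and 18.58), the 28S ribosomal RNA gene RNA28SN5 (18.40 and 18.47), the histone H4C3 (18.02 and 18.13) and EEF1A1 (17.81 and 17.96). The signal was concentrated: the 100 brightest probes held 22.2% and 21.7% of the summed signal of the 2 arrays, and the 1000 brightest held 66.0% and 65.8%.

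Some of the 20 brightest genes rested on 1 probe that its companions did not match. ZNF865 gave 18.63 and 18.56 with its brightest probe and 6.50 and 6.67 with its other one. GPR155 gave 18.39 and 18.35 against 5.17 and 5.57 and 5.10 and 5.39, and FUT6 gave 18.28 and 18.29 against 4.46 and 3.98, which was not well above background. AS3MT and SLC16A12 likewise had other probes that were not detected. Of the 11 genes among the 20 with several probes, 6 had probes more than 5 log2 units apart, and the other 9, such as SLC66A1, CYP2W1 and FAM74A4, had a single probe.

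Long noncoding RNAs were detected less often than other probes. Of 23038 custom probes for them, 30.6% were present, against 66.6% of 34128 catalogue probes. Among named genes, 45.0% of 1027 long noncoding RNA genes and 73.5% of 18143 protein-coding genes were present. The brightest custom probes targeted the transcripts TCONS_00006556 (17.12 and 17.21) and TCONS_00007197 (17.17 and 17.12), for which no gene name was used here. TCONS_00000605 (16.52 and 16.41), TCONS_00007198 (16.48 and 16.62) and TCONS_00000095 (16.48 and 16.47) came next.

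Some dim genes differed widely between the 2 control arrays. HPD gave 4.71 and 8.93, FGD5 8.59 and 4.59, and RGMB-AS1 8.34 and 4.67, and the 10 named genes that differed most were all below the bright range. Over all present probes, 425 (1.43%) differed by more than 1 after scaling, of which 3 were bright.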

How the data were processed

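Agilent Feature Extraction 10.7.1.1, per the file headers (the submitters' processing notes name 9.1), produced the deposited intensity of each spot after background subtraction, with no scaling between arrays. The authors' matrix holds log2 values, described in the study's methods as VSN-normalized, with scale and centring otherwise unknown (column medians 4.99 and 5.11). Over 29727 probes its column for control replicate 1 followed scanner array 2 (r = 0.999) more closely than array 1 (0.993), and its column for replicate 2 reached at most 0.750 with any array, so the matrix was only an alternative.

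Of 57176 unique probes, 10 were lost to outlier flags, and spots of a probe were averaged as log2 signal. Unversioned accessions named 25725 probes through RefSeq (GRCh38.p14), and the array's hg19 coordinates were not used. A gene was represented by its brightest probe. Only 2 arrays limit the precision.

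No test between groups was run. The members and lists were chosen with earlier results of these data known. Any listed gene could be named, and some listed genes, which stay in the counts, are not reported here or drawn. Values were required for line markers, leukaemia factors, 9p21 and cortical genes, the extremes and undetected genes of other lists, the 20 brightest genes, the 10 brightest listed factors and surface genes, the 5 brightest custom probes and the 10 genes that differed most between the arrays. Alternatives changed the presence rule, the probe chosen, the background correction, the scaling and the arrays used. Python 3.11.15, numpy 2.4.6, pandas 2.3.3, R 4.3.3 and limma 3.58.1 were used.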

Additional observations from a re-analysis of the deposited data

How the results depend on the processing

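Presence counts stayed within 1.5 times under every alternative run. Listed genes present ranged from 369 (all probes of a gene present) to 425 (the laxer positive-and-significant mark), and from 396 to 401 when 1 control array was used alone. Of the 51 listed genes not detected, 24 were present by that laxer mark, so these calls are bounds set by the background. Genes present ranged from 13169 to 16327, and bright listed genes from 137 (percentile among catalogue probes only) to 187. The agreement of the arrays fell to r = 0.735 in the deposited matrix, where the median absolute difference was 1.27. That difference was 0.144 without scaling, 0.0832 with normexp and 0.207 over all probes, the last including probes at the lowest signal. TAL1 lay between percentiles 72.0 and 86.0, NOTCH1 between 74.6 and 88.1, CD3E between 82.3 and 90.9, DNTT between 87.2 and 97.4 and LMO1 between 97.9 and 98.7. The low ends for TAL1, NOTCH1, CD3E and LMO1 came from ranking among catalogue probes only. The high ends for TAL1, NOTCH1 and CD3E and the low end for DNTT came from the deposited matrix. Its replicate 2 column reached at most r = 0.750 with any array. Normexp used the median signal because the files hold no mean signal, and it and the matrix's replicate 1 column alone (187 bright listed genes) were chosen after seeing the data. No paired analysis was possible because only 1 group was described. With 2 arrays, outlying samples could not be identified.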

Other observations

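Outside the lists, the 100 brightest genes included TUBA1B, a tubulin gene (17.77 and 17.81), GSTP1, a detoxifying enzyme (17.71 and 17.80), MIF, a cytokine (17.29 and 17.43), NPM1, a nucleolar protein (17.04 and 17.23), and FTH1, the ferritin heavy chain (17.03 and 17.08). CAVIN1, which coats caveolae (17.50 and 17.52), and ADAMTS7, a secreted protease (17.18 and 17.02), also stood among them. For CAVIN1 the values are those of the brightest of 2 probes and for ADAMTS7 of 4. Whether their other probes match is not shown here. These genes were chosen after their values were seen.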
